A study of Mus musculus with 9 samples.

Results

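H3K4me3 in MLL-ENL leukemia cells that carry Flag-tagged Hhex on a deleted background (the rescue library, labelled ΔERT2 + Hhex-F) was compared with H3K4me3 in the deleted cells alone (labelled ΔERT2). The members were the 301 bp windows, 1 per gene, with a gene symbol and a mean of at least 20 counts over these 2 libraries. This held for 6369 windows of 26611 with a symbol and 27179 in all. Just inside that minimum, 49 windows had a mean of exactly 20 counts and a median log2 ratio of -0.05, and just outside it 38 windows with a mean of 19.5 counts also had a median of -0.05.

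The series measured 3 immunoprecipitations (H3K4me3, H3K27me3 and the M2 antibody to the Flag tag) in mouse MLL-ENL leukemia cells of 3 genotypes, floxed (labelled fl), deleted and rescue, with 1 library each. All genotypes share the MLL-ENL fusion, an oncogene that joins the H3K4 methyltransferase gene Kmt2a to Mllt1 and gives a myeloid leukemia. Which gene was floxed, what drives Hhex-F, and whether a line is 1 clone or comes from pooled animals are not stated in the labels. With 1 library a side, every value describes these libraries and no difference has a replicate check. In such bulk material, fewer cells that carry the mark and less of the mark per cell cannot be told apart.

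H3K4me3 is a histone mark laid down around transcription start sites by the SET1 and MLL families of methyltransferases. It is strongest at CpG-rich promoters and at active genes. At many developmental genes it lies beside H3K27me3, the mark of Polycomb repressive complex 2 (PRC2), a state called bivalent. Hhex is a homeobox transcription factor of early haematopoietic and endoderm cells that mostly represses its targets.

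Whether a window measures a promoter depended on the strand of its gene. In the deleted library, 9235 genes on the plus strand had 31.8 counts per window and 9223 genes on the minus strand had 2.83. In the rescue library these values were 29.8 and 2.71. A measured window was found for 49.7% of plus-strand genes and 3.43% of minus-strand genes. On the plus strand this share was 14.0% for genes of up to 2 kb and 59.0% for genes longer than 20 kb. On the minus strand it went the other way, from 10.3% to 1.07%. This is the split that a window at the lower coordinate of every gene would give, which is the start of a plus-strand gene and the far end of a minus-strand gene. No source used here states the position of the window itself. Strand came from the RefSeq promoter table of build GRCm38.p6, which held 4906 of the 6369 measured genes.

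**Figure D1:**
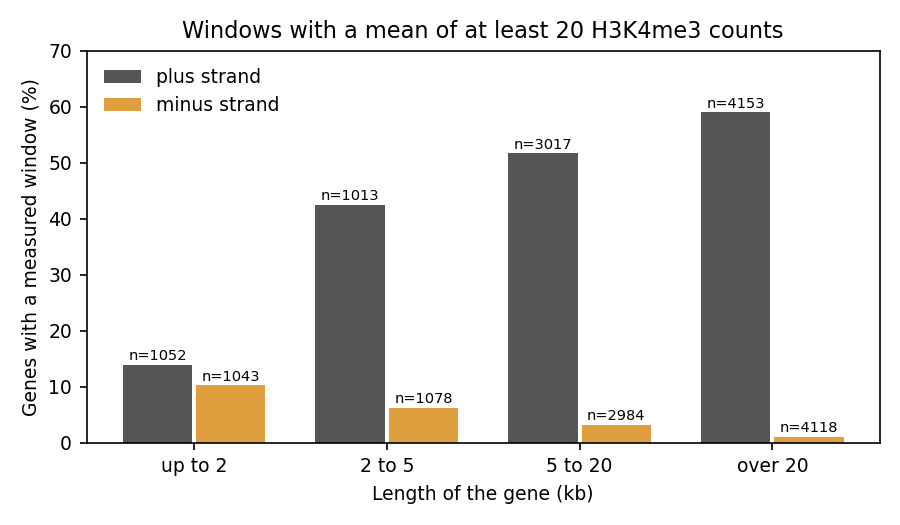
Share of genes with a measured H3K4me3 window (y axis, percent) by gene length in kb (x axis), for plus-strand and minus-strand genes, with the number of genes above each bar. The plus-strand share is higher in longer genes, up to 59.0%, and the minus-strand share is lower in longer genes, down to 1.07%.

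Of the 6369 measured windows, 3970 (62.3%) belonged to plus-strand genes with a start site within 500 bp of the lower gene end and are called start-site windows. Another 620 were on the plus strand with a listed start farther away, 316 were at the far end of minus-strand genes, and 1463 belonged to genes whose strand was not in the table. The word promoter is used below for start-site windows only.

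The promoters of 10 windows that the results below turn on are shown here, picked to span the range of CpG content in both directions. The counted 301 bp need not be the same bases. Each is 300 bases from the RefSeq table (GRCm38.p6, plus strand), from 250 bases before the start site to 50 bases from it on, with CG pairs in capitals. The first group was lower in the rescue library: Slc28a2 (chr2:122426185-122426484), Pmp22 (chr11:63128732-63129031), Adm (chr7:110627407-110627706), Hist1h1d (chr13:23554782-23555081) and Ptprk (chr10:28074570-28074869).
Slc28a2: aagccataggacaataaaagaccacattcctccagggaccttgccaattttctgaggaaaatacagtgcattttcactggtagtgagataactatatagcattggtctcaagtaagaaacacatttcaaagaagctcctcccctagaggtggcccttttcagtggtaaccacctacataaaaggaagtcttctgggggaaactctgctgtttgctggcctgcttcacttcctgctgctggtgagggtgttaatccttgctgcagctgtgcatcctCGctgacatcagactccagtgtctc
Pmp22: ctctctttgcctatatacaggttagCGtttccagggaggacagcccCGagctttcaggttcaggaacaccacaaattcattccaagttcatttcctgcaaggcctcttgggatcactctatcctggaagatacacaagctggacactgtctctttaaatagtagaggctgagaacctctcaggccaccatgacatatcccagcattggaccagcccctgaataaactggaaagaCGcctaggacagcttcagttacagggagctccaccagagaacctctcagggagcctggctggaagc
Adm: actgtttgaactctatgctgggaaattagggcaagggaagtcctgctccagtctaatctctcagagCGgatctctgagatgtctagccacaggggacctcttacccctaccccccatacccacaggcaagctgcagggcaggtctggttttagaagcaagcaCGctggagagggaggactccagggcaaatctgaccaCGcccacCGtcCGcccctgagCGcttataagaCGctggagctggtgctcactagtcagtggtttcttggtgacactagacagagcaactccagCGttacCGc
Hist1h1d: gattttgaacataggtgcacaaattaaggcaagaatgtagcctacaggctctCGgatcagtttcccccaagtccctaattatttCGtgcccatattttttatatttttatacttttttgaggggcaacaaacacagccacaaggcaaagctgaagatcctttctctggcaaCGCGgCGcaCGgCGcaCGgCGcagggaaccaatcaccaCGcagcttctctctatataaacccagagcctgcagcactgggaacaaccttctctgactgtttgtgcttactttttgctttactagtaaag
Ptprk: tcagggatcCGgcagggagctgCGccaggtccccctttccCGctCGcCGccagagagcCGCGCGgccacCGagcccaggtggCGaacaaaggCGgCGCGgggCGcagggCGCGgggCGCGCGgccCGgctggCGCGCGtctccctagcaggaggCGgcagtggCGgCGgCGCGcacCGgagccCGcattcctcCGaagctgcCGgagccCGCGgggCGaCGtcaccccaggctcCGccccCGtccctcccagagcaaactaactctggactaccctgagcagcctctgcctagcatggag

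The second group was higher in the rescue library: Elane (chr10:79886062-79886361), Mthfs (chr9:89210940-89211239), Pgk1 (chrX:106186850-106187149), Hexim1 (chr11:103116075-103116374) and Hhex (chr19:37434591-37434890).
Elane: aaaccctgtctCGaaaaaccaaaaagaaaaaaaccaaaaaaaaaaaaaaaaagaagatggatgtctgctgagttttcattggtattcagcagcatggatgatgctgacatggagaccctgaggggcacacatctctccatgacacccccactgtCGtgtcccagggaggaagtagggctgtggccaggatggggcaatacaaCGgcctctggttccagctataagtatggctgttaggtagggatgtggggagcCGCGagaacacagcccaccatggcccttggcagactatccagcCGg
Mthfs: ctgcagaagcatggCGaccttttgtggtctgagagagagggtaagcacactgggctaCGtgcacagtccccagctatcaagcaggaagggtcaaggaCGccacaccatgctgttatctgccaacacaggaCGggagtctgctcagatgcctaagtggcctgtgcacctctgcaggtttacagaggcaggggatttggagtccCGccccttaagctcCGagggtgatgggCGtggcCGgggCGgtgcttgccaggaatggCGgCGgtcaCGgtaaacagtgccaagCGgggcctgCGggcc
Pgk1: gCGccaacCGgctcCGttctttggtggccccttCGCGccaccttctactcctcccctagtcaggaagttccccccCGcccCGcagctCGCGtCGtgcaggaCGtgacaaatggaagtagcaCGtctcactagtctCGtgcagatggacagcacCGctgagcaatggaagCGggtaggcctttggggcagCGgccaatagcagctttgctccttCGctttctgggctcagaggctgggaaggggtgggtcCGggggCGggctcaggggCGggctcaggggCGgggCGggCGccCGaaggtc
Hexim1: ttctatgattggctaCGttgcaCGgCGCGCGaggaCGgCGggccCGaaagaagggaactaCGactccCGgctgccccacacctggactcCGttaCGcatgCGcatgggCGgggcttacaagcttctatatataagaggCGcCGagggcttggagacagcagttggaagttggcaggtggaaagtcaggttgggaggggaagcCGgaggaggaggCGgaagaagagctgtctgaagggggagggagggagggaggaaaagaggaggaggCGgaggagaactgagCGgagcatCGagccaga
Hhex: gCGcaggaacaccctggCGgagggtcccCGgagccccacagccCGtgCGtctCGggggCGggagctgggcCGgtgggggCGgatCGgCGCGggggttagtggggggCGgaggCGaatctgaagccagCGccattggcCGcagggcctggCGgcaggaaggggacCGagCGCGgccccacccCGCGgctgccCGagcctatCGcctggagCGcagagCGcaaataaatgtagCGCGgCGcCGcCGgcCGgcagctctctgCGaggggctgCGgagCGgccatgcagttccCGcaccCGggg

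CG pairs numbered 1 in Slc28a2, 3 in Pmp22, 9 in Adm, 10 in Hist1h1d and 38 in Ptprk. They numbered 6 in Elane, 14 in Mthfs, 24 in Pgk1, 21 in Hexim1 and 37 in Hhex.

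Most windows held a similar share of the H3K4me3 counts in both libraries. The median log2 ratio of rescue over deleted was 0.04, with quartiles of -0.22 and 0.25, and 85.3% of windows lay within a ratio of 1.5 either way. By the size rule, 283 windows (4.44%) were higher and 375 (5.89%) lower in the rescue library. The rule asks for a ratio of CPM (counts scaled to a common library total) of at least 1.5 and an exact conditional binomial (Clopper-Pearson) 95% interval that excludes 1. The intervals are given in parentheses after each ratio and cover counting error only. Lower calls went further than higher calls: the ratio was at least 2 in that direction for 170 of the lower and 63 of the higher windows, and at least 3 for 44 and 4. The floxed library, which is not part of the ratio, lay between: the median CPM was 104, 138 and 65.8 in floxed, deleted and rescue over lower windows and 115, 83.2 and 147 over higher ones. Windows picked for opposite values in the compared libraries tend to have any other library between them, so this is no separate check. Among start-site windows alone, 158 (3.98%) were higher and 226 (5.69%) lower. The shares were 3.39% and 5.48% where the listed start lies farther away, and 4.92% and 6.49% where the strand was not in the table.

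The split between higher and lower calls depends on the scale. Counts pooled over 1507 windows of olfactory and vomeronasal receptor and keratin-associated genes, taken here as little used in myeloid cells, came to 911, 592 and 467 in floxed, deleted and rescue. In CPM these were 1412, 1407 and 1182, and rescue over deleted was 0.840 (0.742 to 0.95). Only Olfr1033 among them reached the count minimum, with 45, 34 and 16 counts, and it was itself called lower. Its part in the pooled ratio was not tested. Scaling the libraries to these windows added 0.25 to every log2 ratio and gave 984 higher and 175 lower windows, so that 84.9% of calls were higher in place of 43.0%. All 283 higher calls were among the 984, and the 175 were all among the 375. The values below use the totals of named genes, 420701 in deleted and 395133 in rescue.

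**Figure D2:**
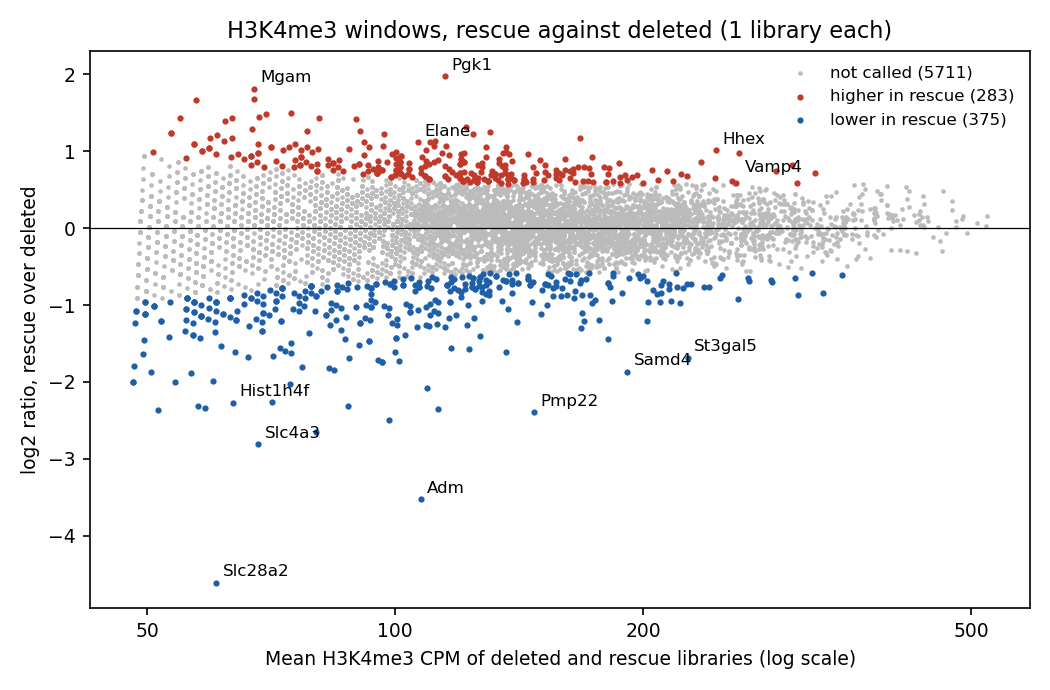
Log2 ratio of H3K4me3 in rescue over deleted (y axis) against the mean CPM of both libraries (x axis, log scale), 1 point for each of 6369 windows. Red points are the 283 windows higher in rescue, blue points the 375 lower and grey points the 5711 not called. Slc28a2 and Adm lie lowest and Pgk1 highest.

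The lower windows with intervals farthest from 1 were those of Slc28a2, Adm and Slc4a3. Counts below are as deposited, so floxed counts, from a larger total of 645240, compare with the others only after scaling to CPM. Slc28a2, a nucleoside transporter gene on chromosome 2 (122426357 to 122461152), had 37, 50 and 1 counts in floxed, deleted and rescue. The rescue window was nearly empty while the others were not, and the ratio was 0.0213 (0.000529 to 0.124). Adm, which encodes the vasodilator peptide adrenomedullin (chromosome 7, 110627657 to 110629820), had 23, 84 and 6 counts with a ratio of 0.0761 (0.0271 to 0.173). Slc4a3, an anion exchanger gene (chromosome 1, 75546044 to 75559431), had 28, 51 and 6 counts with a ratio of 0.125 (0.0439 to 0.292). In CPM the deleted library was the highest of the 3 at these genes and the rescue library the lowest.

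At Pmp22, Samd4 and St3gal5 the floxed and deleted libraries lay closer to each other than to the rescue library. Pmp22, a myelin protein gene (chromosome 11, 63128982 to 63159547), had 194, 250 and 45.6 CPM in floxed, deleted and rescue with a ratio of 0.183 (0.104 to 0.303). Samd4, which encodes an RNA-binding repressor of translation (chromosome 14, 46882965 to 47105817), had 237, 302 and 81.0 CPM with a ratio of 0.268 (0.176 to 0.398). St3gal5, the synthase of ganglioside GM3 (chromosome 6, 72097552 to 72154571), had 263, 347 and 106 CPM with a ratio of 0.306 (0.212 to 0.434). Each of these promoters still held counts in the rescue library, in contrast to Slc28a2. Rbm24, which encodes a splicing regulator of muscle, had 62, 42 and 7 counts. Areg, the gene of the EGF receptor ligand amphiregulin, had 32, 41 and 7. Ptprk, a receptor tyrosine phosphatase gene, had 53, 62 and 11. At all 3 the rescue library was the lowest in CPM as well. At Areg and Ptprk floxed had 49.6 and 82.1 CPM, against 17.7 and 27.8 in rescue and 97.5 and 147 in deleted. By difference in CPM floxed lay nearer to rescue at these genes, and by ratio nearer to deleted. Col25a1, a transmembrane collagen gene, had 54, 50 and 9.

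Cdh4, which encodes R-cadherin, had 61, 71 and 11 counts with a ratio of 0.165 (0.0788 to 0.313). Rnf122, a RING finger gene, had 100, 80 and 14, and the zinc finger gene Zfp612 had 37, 37 and 6. For these genes the strand was not in the table. Beside one another on chromosome 5 lie Abcb1a and Abcb1b, which encode the drug efflux pump P-glycoprotein, and Abcb4, a phospholipid transporter gene. Abcb1a had 60, 59 and 8 counts, Abcb1b 75, 58 and 19 and Abcb4 48, 63 and 17. All 3 promoters were lower in the rescue library, with ratios of 0.144, 0.349 and 0.287. On chromosome 13, Rbm24 and its neighbour Cap2, a gene of actin dynamics with 70, 46 and 13 counts, were likewise both lower.

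The start-site windows with the clearest gains were led by Pgk1, Mgam and Hexim1. Pgk1, the glycolytic phosphoglycerate kinase gene (chromosome X, 106187100 to 106203699), had 39, 19 and 73 counts in floxed, deleted and rescue with a ratio of 4.09 (2.44 to 7.18). Mgam, the maltase-glucoamylase gene, had 37, 12 and 42 counts with a ratio of 3.73 (1.93 to 7.78). Hexim1, which encodes an inhibitor of the elongation factor P-TEFb, had 56, 15 and 41 with a ratio of 2.91 (1.58 to 5.66). In CPM the floxed library held 57.3 at Mgam and 86.8 at Hexim1, between 28.5 and 106 and between 35.7 and 104 in deleted and rescue. At Pgk1 the rescue library, at 185 CPM, was far above both others, at 60.4 and 45.2.

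Mthfs, an enzyme gene of folate metabolism, had 85, 43 and 92 counts with a ratio of 2.28 (1.57 to 3.35). Vamp4, a SNARE gene of the trans-Golgi network, had 114, 74 and 137 with a ratio of 1.97 (1.48 to 2.65). The promoter of Hhex itself (chromosome 19, 37434841 to 37440731) had 93.0, 162 and 329 CPM in floxed, deleted and rescue, with a ratio of 2.04 (1.51 to 2.77). The deleted library thus lay between the others. The files do not tell reads of the added Hhex-F copy from reads of the native gene, so which of them the gain belongs to was not tested.

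Other leading gains lay in windows that are not at a listed start or whose strand was not in the table. Kat6a, a histone acetyltransferase gene, had 70, 20 and 52 counts, Rasgrp4, a Ras exchange factor gene of myeloid cells, 73, 29 and 69, and Maf1, the gene of an RNA polymerase III repressor, 60, 31 and 69. Galr3, a galanin receptor gene, had 44, 24 and 54. At these 4 genes the deleted library was the lowest of the 3 in CPM too. Rfx1, a transcription factor gene, had 51, 18 and 47 counts, and Zc2hc1c 44, 14 and 37, with listed starts more than 500 bp away. Fkbp2, a prolyl isomerase gene of the endoplasmic reticulum, and Eef1a1, the translation elongation factor gene, are minus-strand genes whose windows lie at their far ends. Their ratios were 3.36 (1.76 to 6.83) and 2.93 (1.62 to 5.56). Nudt22, next to Fkbp2, had 113, 50 and 77 counts and was higher as well. Around Galr3, the windows of Lgals1 and Nol12 were higher, with 48 and 75 and 16 and 35 counts in deleted and rescue, and that of the linker histone gene H1f0 was lower, with 50 and 27.

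**Figure D3:**
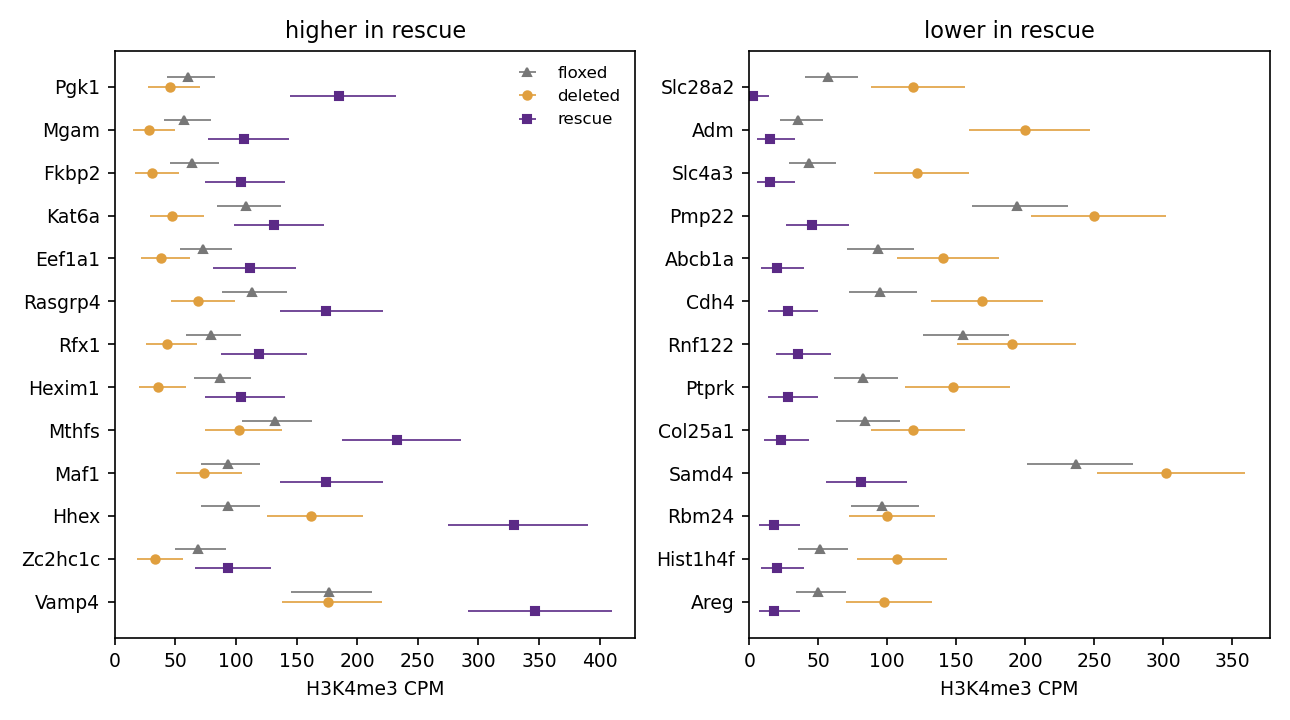
H3K4me3 CPM (x axis) at the 13 windows with the clearest gain (left) and the 13 with the clearest loss (right) in the rescue library. Triangles are floxed, circles deleted and squares rescue, and bars are 95% Poisson intervals of counting error. At Pgk1, Hhex and Vamp4 the rescue library lies far above both others, and at all 13 windows on the right it lies below both.

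Among far-end windows higher calls outnumbered lower ones. Of 316 far-end windows, 32 (10.1%) were higher and 20 (6.33%) lower, against 3.98% and 5.69% of start-site windows. Leaving out histone genes, 32 of 297 far-end windows were higher and 12 lower. Among the higher windows, Gapdh, a glycolytic enzyme gene, had 14 and 27 counts in deleted and rescue. The splicing factor gene Srsf2 had 44 and 77, and the respiratory chain gene Ndufb10 45 and 74. Of the 316 far-end windows, 175 (55.4%) belonged to genes shorter than 5 kb. At 111 (35.1%) a plus-strand start of another gene lay within 5 kb. The part of nearby starts in the far-end counts was not tested. Genes of small nucleolar and spliceosomal RNAs, many of which lie inside introns of other genes, also lay on the high side. Their 67 measured windows had a median log2 ratio of 0.27, 60 of them above 0, with 5 higher and 0 lower by the size rule. How many of these windows lie inside the same gene was not counted, so they may not be 67 separate observations. Snord17 had 96, 33 and 61 counts in floxed, deleted and rescue, and Snord38a had 135, 64 and 102. The median log2 ratio over all measured windows was 0.04, to be set beside the 0.27 of this list. Pooled over all 139 genes of the list, measured or not, the ratio of rescue over deleted was 1.21 (1.16 to 1.25). The pooled level was 17029, 14236 and 17169 CPM in floxed, deleted and rescue, so the deleted library was the lowest.

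Windows lower in the rescue library lay mostly at genes with more H3K27me3. Windows were put in 10 equal classes by H3K27me3 CPM per kb over the gene in the floxed library, which is not one of the compared libraries. In the 2 classes with most H3K27me3, 212 of 1274 windows (16.6%) were lower and 32 (2.51%) higher. In the other 8 classes 163 of 5095 (3.20%) were lower and 251 (4.93%) higher. The upper 2 classes thus held 56.5% of all lower calls. Their median log2 ratio was -0.17, against 0.07 in the other classes, and the shift of 0.25 above would turn it positive. Among start-site windows alone 134 of 743 and 92 of 3227 (2.85%) were lower, and with a mean of at least 50 counts as well the shares were 13.5% and 1.55%. By class the share lower was 18.1% in class 10 and 15.2% in class 9, and at most 5.65% in each of the others. The ratio of pooled counts was 0.871 (0.859 to 0.884) in class 10, close in size to the 0.840 of the receptor and keratin-associated windows. The part of such a shift in weak or background signal in the class results was not tested.

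**Figure D4:**
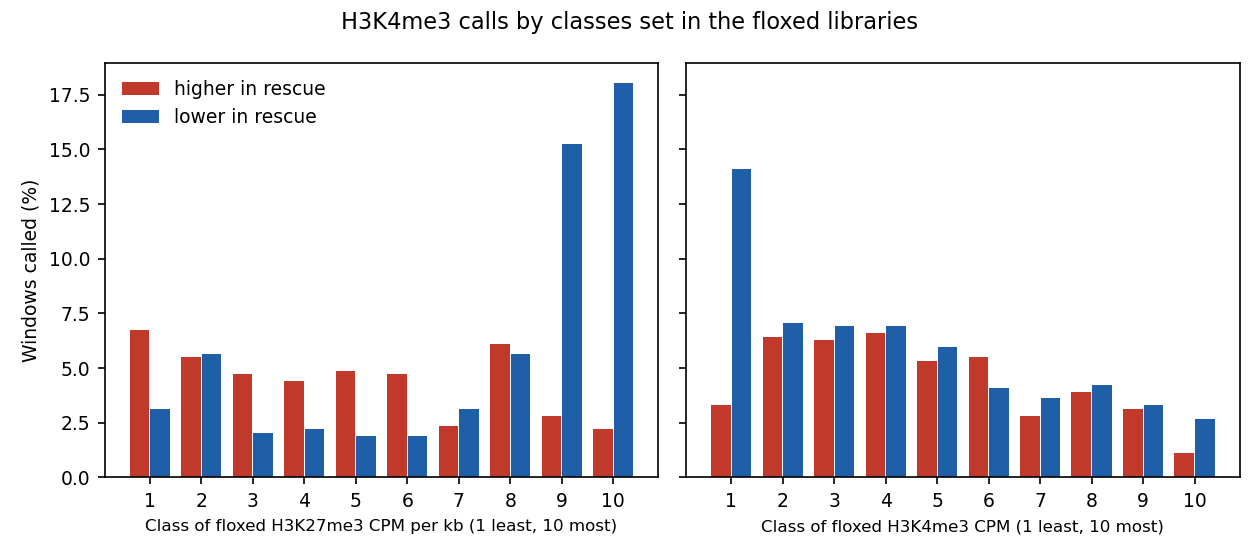
Share of H3K4me3 windows called higher (red) or lower (blue) in the rescue library (y axis, percent), by class of H3K27me3 per kb in the floxed library (left) and by class of H3K4me3 in the floxed library (right), with class 1 least and class 10 most. Lower calls reach 18.1% in class 10 of H3K27me3 and 14.1% in class 1 of H3K4me3.

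The lower windows differed from all measured windows in their H3K27me3 before the rescue as well. The median count of H3K27me3 over the gene in the deleted library was 130 for lower windows, 4 for higher windows and 8 for all. H3K27me3 could be measured (a mean of at least 20 counts over both libraries) at 263 of 375 genes with a lower window (70.1%), at 66 of 283 with a higher window (23.3%) and at 2305 of all 6369 (36.2%). The median span was 26.5 kb for genes with a lower window, 12.7 kb for those with a higher one and 18.1 kb for all.

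At part of the promoters the loss of H3K4me3 came with a gain of H3K27me3, measured in other libraries. The H3K27me3 totals were 2535576 counts in deleted and 4203349 in rescue, and 787 of 10951 measured genes (7.19%) were higher in rescue by the same rule and 1232 (11.3%) lower. Of the 263 genes with a lower H3K4me3 window and measured H3K27me3, 46 (17.5%) were higher in H3K27me3 and 11 (4.18%) lower, against 9.80% and 12.2% of all genes measured for both marks. Seen from the other side, 46 of the 226 genes with more H3K27me3 (20.4%) had a lower H3K4me3 window and 10 (4.42%) a higher one. Of all 2305 genes measured for both marks, 263 had a lower window and 66 a higher one. The 46 include Slc28a2, Samd4, Pmp22, Adm, Slc4a3, Col25a1 and St3gal5. Over the Samd4 gene H3K27me3 went from 340 to 8334 counts, a ratio of 14.8 (13.3 to 16.5), and over Pmp22 from 91 to 1150, a ratio of 7.62 (6.15 to 9.54). Over Slc28a2 it went from 12 to 923, a ratio of 46.4 (26.4 to 90.1). Bin1, a membrane-bending protein gene whose strand was not in the table, had 144 and 71 H3K4me3 counts in deleted and rescue and 11 and 336 of H3K27me3.

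Most lower windows had no such opposite call. Leaving out all genes with higher H3K27me3, 176 of 1143 windows in the 2 densest H3K27me3 classes (15.4%) were still lower. Among lower windows with no H3K27me3 call, Abcb1a had H3K27me3 counts of 506 and 888 in deleted and rescue, a ratio of 1.06 (0.948 to 1.18). Ptprk had 576 and 980, a ratio of 1.03 (0.925 to 1.14), and Cdh4 2236 and 2585, a ratio of 0.697 (0.659 to 0.738) that is under 1 but short of the fold minimum. At 11 genes both marks were lower, among them Mei4, a gene of meiotic recombination, with 57 and 16 H3K4me3 counts and 171 and 146 H3K27me3 counts. The adhesion gene Sdk1, the flippase gene Atp10a, the heat shock factor gene Hsf4 and Vps8 were others of the 11.

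Of the 66 genes with a higher window and measured H3K27me3, 10 (15.2%) were higher in H3K27me3 and 5 (7.58%) lower. The shares were 9.80% and 12.2% of all genes measured for both marks, and 17.5% and 4.18% at genes with a lower window. More H3K27me3 was thus not particular to genes with a lower window. Vamp4 is the clearest, with 10 and 493 H3K27me3 counts, a ratio of 29.7, beside its gain of H3K4me3. Mthfs had 22 and 121, the helicase gene Ddx60 127 and 406 and the myosin gene Myo6 567 and 1419. Bmi1, a subunit gene of Polycomb repressive complex 1, had 30 and 51 H3K4me3 counts and 55 and 164 of H3K27me3. The 5 genes with higher H3K4me3 and lower H3K27me3 were Lrrc75a, Gas8, the Wnt effector gene Tcf7l2, the oxysterol receptor gene Nr1h3 and the peptidase gene Prcp. Lrrc75a had 41 and 71 H3K4me3 counts and 153 and 119 of H3K27me3, which over unequal totals is a ratio of 0.469. The H3K27me3 counts are over whole genes and the H3K4me3 counts over 301 bp, so the marks need not lie on the same nucleosomes.

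Windows weak in the floxed library were called lower more often than strong ones. In 10 equal classes of H3K4me3 in the floxed library, 90 of 637 windows (14.1%) were lower in the weakest class and 17 (2.67%) in the strongest. Higher calls were most frequent in class 4, with 42 of 637 (6.59%), and least in class 10, with 7 (1.10%). The median count of both libraries was 24.5 in class 1 and 114.5 in class 10, so counting error is larger in class 1. Windows entered by their counts in deleted and rescue, so a window weak in floxed could enter through a high deleted value. Adm, for example, had 35.6, 200 and 15.2 CPM in floxed, deleted and rescue. How much of the share in class 1 comes from the count minimum was not tested. The 5 strongest windows, those of A530013C23Rik, Zswim5, Snord68, Gm20324 and Rtn4r, had ratios from 0.955 to 1.12 and none was called.

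The gene lists below are to be read against the shares over all windows, 4.44% higher and 5.89% lower, which a list of few windows passes with a single call. Replication-dependent histone genes encode the core and linker histones made in S phase. Of 37 measured windows 17 (45.9%) were lower and 0 higher, the median log2 ratio was -0.71 and 35 were under 0. When scaled to the receptor and keratin-associated windows the numbers were 14 lower and 1 higher. All 17 lie in the Hist1 clusters of chromosome 13, where 17 of 27 windows were lower and all 27 had log2 ratios under 0. Pooled over these 27, the counts of 1146, 1323 and 641 in floxed, deleted and rescue came to 1776, 3145 and 1622 CPM. The deleted library thus stood high, and the rescue library was close to floxed. The 7 windows of Hist2 on chromosome 3 and the 3 of Hist3 on chromosome 11 had medians of -0.35 and -0.20 and none was called. Members were found by symbol, and those of Hist3 include the pseudogene Hist3h2bb-ps, with 158, 120 and 98 counts in floxed, deleted and rescue.

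Hist1h4f, an H4 gene, had 33, 45 and 8 counts in floxed, deleted and rescue with a ratio of 0.189 (0.0771 to 0.406). The linker histone gene Hist1h1d had 37.2, 80.8 and 20.2 CPM, Hist1h1b 94.5, 247 and 106 and Hist1h1a 77.5, 164 and 73.4. The H3 gene Hist1h3a had 58.9, 90.3 and 22.8 CPM and Hist1h3c 58.9, 135 and 45.6. The deleted library was the highest of the 3 at each of these genes, and rescue was the lowest at all of them but Hist1h1b, where floxed was. Several of these genes are nearly identical to one another, and reads shared between copies make single values uncertain. Histone genes are short, so a far-end window lies close to the start: 14 of the 37 were start-site windows, and 8 of these were lower.

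**Figure D5:**
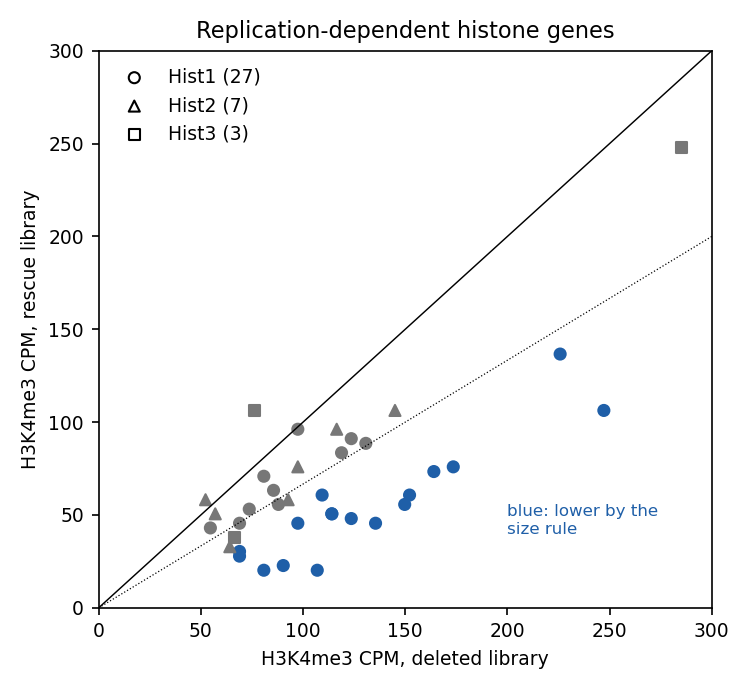
H3K4me3 CPM in the rescue library (y axis) against the deleted library (x axis) for 37 replication-dependent histone windows. Circles are Hist1, triangles Hist2 and squares Hist3 genes, the solid line marks equal CPM and the dotted line a ratio of 1 divided by 1.5. All 27 Hist1 windows lie under the solid line, and the 17 blue ones were lower by the size rule.

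Lists of metabolism and protein synthesis differed among themselves, and part of their higher calls were far-end windows (Gapdh, Eef1a1 and Fkbp2). Of 10 glycolysis windows 2 were higher and 0 lower (Pgk1 and Gapdh), with a median log2 ratio of 0.20, and 8 were above 0. Of 11 translation factor windows 2 were higher, Eef1a1 and Eef2, with 24 and 41 counts at the Eef2 promoter in deleted and rescue, and the median was 0.20. Of 14 chaperone windows 3 were higher, Fkbp2, the cyclophilin gene Ppib and the chaperonin subunit gene Cct3, with a median of 0.18. Over start-site windows alone the medians of these 3 lists were 0.18, 0.07 and 0.06, against 0.03 over all start-site windows. Of 48 ribosomal protein windows 3 (Rps28, Rpl23a and Rps27a) were higher and 0 lower, with a median of 0.06, and 0 of their 25 start-site windows were called. Mitochondrial ribosomal proteins had a median of 0.02 over 40 windows, with Mrps14 higher and Mrps2 lower.

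Respiratory chain genes had 3 higher and 3 lower of 26. Ndufb10 was among the higher, and Atp5a1, Uqcrc1 and Cox4i1 were the lower ones, with 36 and 15, 52 and 29 and 61 and 36 counts in deleted and rescue. Of 7 tRNA synthetase windows 2 were higher, Eprs and Aars. Of 12 cholesterol synthesis windows the kinase gene Pmvk was higher, with 19 and 36 counts, and the isomerase gene Idi1 lower, with 31 and 15, and the median was -0.10, which the receptor and keratin-associated scale turned to 0.15. None of 23 proteasome windows was called (median 0.15), nor any of 20 autophagy and lysosome windows (0.12), though scaling to the receptor and keratin-associated windows gave 4 and 3 higher.

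Among lists of chromatin regulators, PRC2 subunits had 3 measured windows, all promoters, of which 2 were lower and 0 higher. Suz12, a core PRC2 subunit gene (chromosome 11, 79993106 to 80034123), had 43, 32 and 15 counts in floxed, deleted and rescue with a ratio of 0.499 (0.251 to 0.949). Mtf2, which encodes an accessory subunit that binds chromatin, had 65, 44 and 24 with a ratio of 0.581 (0.338 to 0.976). The upper bounds of both intervals lie close to 1, and neither was called when scaled to the receptor and keratin-associated windows. Among H3K4 methyltransferase complex genes, 1 of 7 was higher, the core subunit gene Wdr5 with 32 and 48 counts, and the median was 0.26. Wdr5 lost its call with a median ratio of 1 and with totals over all rows. None of 4 H3K4 demethylase windows was called, among them Kdm5b with 106 and 126 counts. Of 10 acetyltransferase and bromodomain windows Kat6a was higher and Meaf6, a subunit gene of the same enzyme family's complexes, lower with 87 and 54.

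The cell cycle and damage response lists held 0 or 1 call each. None of 12 DNA replication windows was called, with a median of -0.18 and 9 under 0. The receptor and keratin-associated scale turned this median to 0.07 and gave 1 higher, and a median ratio of 1 gave 2 lower. Of 12 cyclin and cell cycle kinase windows only Cdc25b, a phosphatase gene of mitotic entry, was called, higher with 39 and 61 counts. Of 17 checkpoint and repair windows, Mre11a, a nuclease gene of double-strand break repair, was lower with 35 and 15. Of 13 p53 list windows, Phlda3, an Akt inhibitor gene, was lower with 140 and 81. None of 13 nuclear pore windows and 1 of 20 splicing factor windows, Srsf2, were called.

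Cdkn2a, the gene of the CDK inhibitor p16 and of p19ARF, which the series title names, lies on the minus strand of chromosome 4 (89274473 to 89294619). Its window of 46, 20 and 39 counts therefore lies at the far end of the gene by the reading above, and the ratio of 2.08 (1.18 to 3.76) is not a measure of its promoters. Cdkn2b, the neighbouring gene of the inhibitor p15, is on the minus strand as well and had 0, 0 and 1 counts. Cdkn2a was the only called window of the 4 measured CDK inhibitor genes.

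In the myeloid lists, granulocyte and monocyte maturation genes had the highest median of the function lists with 10 or more windows. Of 11 measured windows 3 were higher and 0 lower, with a median log2 ratio of 0.47, and 8 were above 0. Elane, which encodes neutrophil elastase (chromosome 10, 79886312 to 79888216), had 141, 66.6 and 147 CPM in floxed, deleted and rescue with a ratio of 2.21 (1.38 to 3.60). Irf8, a transcription factor gene of monocytes and dendritic cells, had 44, 26 and 52 counts with a ratio of 2.13 (1.31 to 3.55). At both the deleted library was the lowest. Of the 11 windows 3 were under 0. Mpo, the myeloperoxidase gene, was among them without a call, with 89, 49 and 32 counts. Over the Mpo gene H3K27me3 went from 6 to 483 counts in deleted and rescue, a ratio of 48.6 (22.1 to 133). Prtn3, also under 0 without a call, had 80, 56 and 48 H3K4me3 counts in floxed, deleted and rescue. These genes were chosen with earlier results of these data known.

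Of 20 windows of haematopoietic transcription factors, Irf8 and Id1 were higher and Tcf4 was lower, with a median of 0.12. Of 7 MLL fusion targets outside the Hox clusters Tcf4 was again the one call, with 41 and 16 counts. None of 4 stem and progenitor windows was called, among them the promoter of the cytokine receptor gene Kit with 162 and 143. Of 18 chemokine and cytokine receptor windows 3 were higher and 0 lower: Ifngr2, of the interferon-gamma receptor, with 32 and 60 counts, Il17ra with 51 and 82 and Cxcr4 with 23 and 39. Of 13 interferon-stimulated windows Ifitm3 was higher and Xaf1 lower. Antigen presentation genes had 3 lower of 12, H2-Q6, H2-Q7 and the costimulator gene Cd80, and 0 higher.

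Of 19 windows of developmental transcription factors 3 (15.8%) were lower and 0 higher, with a median of -0.04. Over the 8 start-site windows of this list 1 was lower and the median was 0.16. Tcf15, a factor of somite formation, had 41, 60 and 23 counts in floxed, deleted and rescue, Foxl2, of the ovary, 71, 87 and 44, and Tbx1, of the pharyngeal arches, 94, 73 and 41. The Tbx1 window lies at the far end and Tcf15 had no strand in the table. In the Hox clusters 2 of 10 were lower, Hoxd8 with 81, 62 and 30 and Hoxd13 with 85, 54 and 32, and 0 higher, with a median of -0.35. On the receptor and keratin-associated scale, these numbers became 2 lower and 1 higher for the developmental list, whose median turned to 0.21, and 1 and 1 for Hox. Of 173 zinc finger windows 12 were higher and 6 lower, with a median of 0.04.

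Of 95 solute carrier windows 7 (7.37%) were lower, led by Slc28a2 and Slc4a3 and including Slc4a4 and Slc12a2, and 3 higher. Of 38 ubiquitin conjugation and protease windows, Usp24 and Usp1 were lower and 0 higher. Of 78 microRNA windows 3 were higher and 7 lower: Mir210 had 137, 32 and 73 counts in floxed, deleted and rescue, Mir3077 had 106, 51 and 81, Mir688 had 121, 101 and 38 and Mir9-1 had 114, 82 and 39. Of 564 windows of predicted and unnamed genes 33 were higher and 21 lower.

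The ratio of observed to expected CG pairs had a median of 0.794 over 3970 start-site windows, 0.767 over the 158 higher and 0.738 over the 226 lower ones. In the CpG-poorest of 10 classes 7.56% were lower and 5.54% higher, and in the CpG-richest 5.29% and 5.04%. Between them the share lower did not fall steadily. Counted from the poorest, it was highest in class 4 (7.81%) and lowest in class 5 (2.77%). With a division at 0.6, 58 of 795 poorer promoters (7.30%) and 168 of 3175 richer ones (5.29%) were lower. Of 6 short motifs searched on both strands of the same 300 bases, the ETS core TTCCGG differed most: it was present in 30.6% of start-site promoters, 24.1% of the higher and 17.7% of the lower ones, and in 14.9% of all 32851 promoters in the table. CCAAT was present in 38.2%, 42.4% and 37.6%, and in 37.4% of the table. GGGCGG was present in 70.1%, 67.1% and 72.1%, and in 35.7% of the table. TATAAA was present in 5.99%, 8.23% and 7.96%, TAATTA, a homeobox core, in 2.02%, 3.16% and 2.21%, and CACGTG in 11.03%, 10.1% and 9.73%. In the table these were 13.6%, 5.29% and 7.15%. A match of letters is a description and not a binding site.

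Part of the called windows lay next to each other. Of 642 called windows with a position, 129 formed 55 groups in which the genes lie within 100 kb of each other. No matching count was made for windows without a call, so the number does not show whether calls are clustered. Of the 55 groups 19 held lower windows alone, 14 higher windows alone and 22 both. The largest were 2 groups of 6 lower histone windows each on chromosome 13.

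Windows were also set beside Flag summits found in the rescue library alone. Of its 429 deposited summits, 203 had no summit of the floxed or deleted Flag libraries within 1 kb. Distance was taken to the nearest end of the whole gene, and as 0 for a summit inside it, so the window itself can lie farther away. Genes within 10 kb of these 203 held 16 measured windows, of which 1 was lower (6.25%, near the 5.89% of all windows) and 0 higher. It is Osbpl6, an oxysterol-binding protein gene on chromosome 2 (76406504 to 76600647), with 125, 77 and 43 H3K4me3 counts in floxed, deleted and rescue with a ratio of 0.595 (0.400 to 0.875). Genes within 50 kb held 37 windows with 1 higher and 2 lower, the added genes being Gas8 and Mlf1.

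Marker windows of the cells themselves and of other cell types gave a partial check of identity, since most windows of minus-strand genes hold little signal. In the granulocyte and monocyte list 11 of 35 windows were measured, and the promoters of Elane, Mpo, Prtn3, S100a8 and Itgam had 91, 89, 80, 51 and 36 counts in the floxed library. Other myeloid marker windows, at far ends or without a strand in the table, had 188 (Cebpe), 170 (Ctsg), 24 (S100a9), 10 (Csf1r) and 5 (Lyz2). Measured windows numbered 1 of 13 for B-cell, 0 of 17 for T-cell and NK-cell, 1 of 15 for erythroid and megakaryocyte, 1 of 11 for mast cell, basophil and eosinophil, 3 of 14 for stromal and endothelial and 2 of 13 for neuronal genes. Summed over each of these lists, the level in the 3 libraries ranged from 68.3 CPM for mast cell, basophil and eosinophil genes in rescue to 406 CPM for stromal and endothelial genes in deleted. The granulocyte and monocyte list, with 35 windows, summed to 1802, 1619 and 1868 CPM in floxed, deleted and rescue. The B-cell promoter Cd79a had 3 counts in each library and the T-cell promoter Cd3d 0, 1 and 1. Some markers of other cells were within the range of the myeloid ones. The stromal promoter Cxcl12 had 141, 77 and 58 counts in floxed, deleted and rescue, above each myeloid promoter named here in floxed. The eosinophil promoter Siglecf had 60, 29 and 23 and the stromal window Pdgfrb 42, 26 and 19. The levels of single windows overlap and the lists differ in size, so the windows do not by themselves settle which cells were present. No window of these other lists was called.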

How the data were processed

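Chromatin immunoprecipitation and sequencing of MLL-ENL leukemia cells gave 1 library per group. Per the labels' protocols, chromatin was sonicated and precipitated with antibodies to H3K4me3 or H3K27me3, or with M2 anti-Flag beads. For both histone marks the authors deposited raw counts, 1 whole number per gene and library. Per the submitters' processing notes, featureCounts, MACS2 and mm10 were used, with no version given. No source used here names the aligner. For Flag, the authors deposited summits of each library with a −log10 p or q value as the score. All but 2 of the named H3K4me3 windows span 301 bp. Unnamed rows (568, holding 0.702% and 0.727% of the deleted and rescue counts) were left out.

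From the counts, CPM over named-gene totals, ratios and Clopper-Pearson intervals were computed (Python 3.11.15, SciPy 1.17.1), and log2 ratios with a prior count of 1 per library at mean size. The depth was 420701 counts for deleted and 395133 for rescue, and 645240 for floxed. No test between groups was made. The script was tested on simulated data. The genes named were the 15 clearest higher and lower windows by the interval bound nearest 1 (predicted, small RNA and pseudogenes skipped). Also named were up to 4 called members of each list (where none, up to 2 with the highest counts) and the 5 strongest windows. So were called windows of genes near Flag summits, up to 5 genes per combination of marks, their called neighbours within 100 kb, and Hhex, Cdkn2a and Cdkn2b. Members and lists were chosen with earlier results of these data known. Mlf1, Mpo, Prtn3, Itgam, S100a8, Cebpe, Ctsg, S100a9, Csf1r and Lyz2 were chosen after their values were seen. So were Cxcl12, Siglecf, Pdgfrb, Cd79a, Cd3d, Hist1h1a, Hist1h1b, Hist3h2bb-ps, H2-Q10 and the interferon zeta genes. Gene positions, strands and promoters came from RefSeq (GRCm38.p6, the assembly of mm10), matched on Entrez identifier: 6255 of 6369 measured genes had a position. Alternatives were a prior count of 5 for list medians, edgeR 4.0.16 TMM factors, other scalings, count minimums, folds and intervals. A few genes and a gene list that this rule would name are not reported here.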

Additional observations from a re-analysis of the deposited data

How the results depend on the processing

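No paired analysis was possible because each group holds 1 library, and no library could be left out for the same reason. Each called gene tried kept its direction under the other scalings. The counts of higher and lower windows were 283 and 375, with 46 lower windows that had more H3K27me3. They moved by less than 1.5 times with edgeR TMM factors, a median ratio of 1, totals over all rows, a mean of at least 10 counts, no fold minimum and without histone genes (chosen after seeing the data). Of all named windows, 90 had the same counts as a neighbour within 1 kb, but no measured window did. Counting such windows once therefore left the calls as they were and tests nothing. Scaled to the receptor and keratin-associated windows they were 984, 175 and 28. With a mean of at least 50 counts they were 116, 135 and 20, and with at least 100 counts 7, 12 and 5, where fewer windows are tested. A fold of 2 gave 63, 170 and 25, and a 99% interval 133 and 228. Without a filter 629 windows were lower. Among start-site windows alone, chosen after seeing the data, there were 158 and 226. In the weakest class the share of lower windows was 10.99% in place of 14.1% when classes were set by the mean of the compared libraries. Called windows of genes near rescue-only Flag summits numbered 3 within 50 kb in place of 1. The cause of the shifts with scaling was not tested. Of 121 named windows, 17 lost their call and 5 gained one with the receptor and keratin-associated scale, and 2, 3 and 1 lost theirs with TMM, a median ratio of 1 and totals over all rows. Depth limits these data: the median window held a mean of 52.5 counts, and without the fold minimum 391 windows were higher and 439 lower.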

Other observations

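On chromosome 4, 4 neighbouring start-site windows of the interferon zeta family (88757844 to 88808380) were all higher in the rescue library. Ifnz had 61, 35 and 69 counts in floxed, deleted and rescue, Gm13286 had 47, 22 and 43, Gm13277 had 30, 15 and 40 and Gm13288 had 109, 70 and 120. In the deleted library all 4 were at their lowest. These genes are near-identical copies whose reads may be shared, so they are uncertain and not 4 separate observations.

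On chromosome 17, 3 class Ib major histocompatibility promoters were lower. H2-Q6 had 75, 100 and 40 counts, H2-Q7 had 117, 119 and 48 and H2-Q10 had 81, 92 and 47. The H3K27me3 ratio of rescue over deleted was 1.42 at H2-Q6 and 1.52 at H2-Q7. These are near-identical copies as well.

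Calls were spread unevenly over chromosomes. On chromosome 13, 30 of 239 measured windows (12.6%) were lower and 3 (1.26%) higher, and 17 of the 30 are the histone windows. On chromosome 15, 22 of 229 (9.61%) were higher and 10 (4.37%) lower, against 4.44% and 5.89% over all chromosomes. The windows themselves are a limit that other uses of these counts share: 34.7% of named rows belong to minus-strand genes, for which a low count says little about the promoter.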
